A study of Mus musculus with 24 samples.

Results

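The transcripts described here belong to 8 genes of oxysterol synthesis, liver X receptor (LXR) signalling and cholesterol efflux: Ch25h, Nr1h3, Nr1h2, Abca1, Abcg1, Apoe, Mylip and Lpcat3. They were picked by gene name out of the 12767 genes that the deposited table of normalised read counts lists, and all 8 are listed and passed the filter on low values. The choice also used a measured value, the higher Ch25h level in knockout than in wild-type cells under IgG. That contrast is therefore a description with no test for every gene below, and Ch25h is given no test in any comparison that uses the IgG libraries.

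The RNA came from CD11c-selected cells of the mesenteric lymph node, the node that drains the gut, taken from C57BL/6 mice bearing MC38 tumours, a transplanted mouse colon carcinoma line. Groups of 3 libraries each, 24 libraries in all, were labelled Myd88 knockout combination, Myd88 knockout LGG, Myd88 knockout anti-PD-1, Myd88 knockout IgG, wild-type combination, wild-type LGG, wild-type anti-PD-1 and wild-type IgG. Myd88 is the adaptor through which most Toll-like receptors and the interleukin-1 receptor family signal. LGG is a live oral Lactobacillus strain, anti-PD-1 is an antibody that blocks a checkpoint receptor, the combination is both, and IgG is the control antibody. All mice were labelled female, were 6 to 8 weeks old when injected with tumour cells, and were assigned to treatment 7 to 10 days later at an average tumour size of 100 mm3. Treatment lasted 2 to 3 weeks, with 200 µg of antibody per mouse and injection for IgG, anti-PD-1 and combination mice. The labels do not say whether mice given LGG alone also received IgG. Mice were pooled before assignment, and the cells were taken with CD11c MicroBeads, which do not separate dendritic cells from other cells that carry CD11c. No label states that the 3 libraries of a group came from different mice, and the p-values may thus reflect technical spread only.

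Ch25h encodes cholesterol 25-hydroxylase, an enzyme of the endoplasmic reticulum that turns cholesterol into 25-hydroxycholesterol and is known in myeloid cells as a gene induced by interferon and by Toll-like receptor ligands. Oxysterols of this kind bind LXR-alpha (Nr1h3) and LXR-beta (Nr1h2), nuclear receptors that pair with retinoid X receptors and switch on genes for cholesterol export, among them the transporters Abca1 and Abcg1 and the lipoprotein component Apoe. LXR also induces Mylip, a ubiquitin ligase that removes the LDL receptor, and Lpcat3, which builds polyunsaturated phospholipids, while 25-hydroxycholesterol holds back the SREBP2 pathway of cholesterol synthesis.

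The 250 bases before the transcription start are shown for Ch25h, whose level set the choice of the genes, and for Abca1, a textbook LXR target. Both come from RefSeq on build GRCm38.p6 and are written 5′ to 3′ on the minus strand, the coding strand of each gene. Capitals mark the match to a searched motif.
Ch25h (chr19:34475149-34475398): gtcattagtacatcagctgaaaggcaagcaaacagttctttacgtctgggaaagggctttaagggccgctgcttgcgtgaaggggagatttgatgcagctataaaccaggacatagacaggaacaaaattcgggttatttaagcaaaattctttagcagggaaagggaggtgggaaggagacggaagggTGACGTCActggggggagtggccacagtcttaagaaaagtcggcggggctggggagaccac
Abca1 (chr4:53159896-53160145): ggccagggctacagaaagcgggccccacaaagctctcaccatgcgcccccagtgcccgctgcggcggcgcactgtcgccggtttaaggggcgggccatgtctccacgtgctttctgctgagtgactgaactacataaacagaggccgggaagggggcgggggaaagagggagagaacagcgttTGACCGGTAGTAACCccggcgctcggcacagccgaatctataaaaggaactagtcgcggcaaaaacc

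The capitals in Abca1 match the LXR direct repeat, searched on both strands as the half-sites GGTNA and GGTCA with any 5 letters between them, and lie 67 to 53 bases before the start. Of 32851 promoter windows of this length, 58 hold that motif, a share of 0.177%. Abca1 was the only one with a match among the 10 windows of the 8 genes, where Nr1h3 has 2 and Apoe 3. The capitals in Ch25h match the cyclic AMP response element TGACGTCA, 61 to 54 bases before the start, which 508 windows hold (1.55%). The interferon-stimulated response element, searched as GAAA and GAAA with any 2 letters between them, was in 978 windows (2.98%) and in none of the 10. These motifs were chosen after the sequences and levels had been seen, overlap one another in no printed window, and describe letters only.

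The genes lie at the following places on build mm10, with levels given as normalised read counts per library. Ch25h is on chromosome 19 at 34473778 to 34475164 and has 1387 exon bases, the shortest of the 8. Nr1h3 is on chromosome 2 at 91184061 to 91202834, and Nr1h2 on chromosome 7 at 44549616 to 44553951. Abca1 spans chromosome 4 from 53030787 to 53159895 and has 10363 exon bases, the longest of the 8, and Abcg1 is on chromosome 17 at 31057675 to 31117988. Apoe is on chromosome 7 at 19696109 to 19699188, Mylip on chromosome 13 at 45389742 to 45412022 and Lpcat3 on chromosome 6 at 124663027 to 124704418. Lpcat3 shares 334 bases with Emg1 on the opposite strand, which had a mean of 2167 normalised reads. Ch25h shares 357 bases with Gm26902, also on the opposite strand and not in the table. Nr1h3 shares 6873 bases with Gm13783 and Abcg1 128 with Gm25447, both on the same strand and not in the table. A further 106 bases of Nr1h3 lie against Gm23390 on the opposite strand, also not in the table. The strand setting of the counting is not given in the sources used here, so reads in these stretches cannot be assigned to one of the genes for certain. For genes on the same strand, that setting would not separate them.

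Library depth, counted as reads in listed genes, was 24531528 to 49272593. The dendritic cell markers Itgax (9637 to 53698), H2-Ab1 (26869 to 58274) and Zbtb46 (192.5 to 2323) were present in every library, and no library had the macrophage markers Csf1r, Adgre1 or Mrc1 at 0. Myd88 itself had 697 to 1837 normalised reads in libraries labelled knockout, against 1723 to 2232 in wild-type libraries, so the ranges overlap; counts over a whole gene do not show which exons are missing, and knockout below refers to the label. The sum of 4 Y-linked genes was 3060 to 4857 in knockout libraries, against 0.94 to 10.45 in wild-type libraries, although all mice were labelled female. Genotype cannot be told apart from this difference. Knockout anti-PD-1 replicates 2 and 3 and knockout LGG replicate 2 stood apart from their groups, with limma array weights of 0.0578, 0.0613 and 0.0844, against 0.401 to 8.37 in the other 21 libraries. Many results that use them are given with and without them, and the others with all libraries only. Leaving them out keeps only replicate 1 of knockout anti-PD-1. Results for single genes that use that group are then given as a size of change only. Counts of called genes that use it are listed among the alternatives, and no result is drawn from them. Leaving them out also lowers the estimate of the spread that all groups share. More results then pass, even in groups that hold none of the 3. A pass gained that way is not separate evidence. For the combination against LGG in wild type, called genes rose from 8 to 1095.

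**Figure D1:**
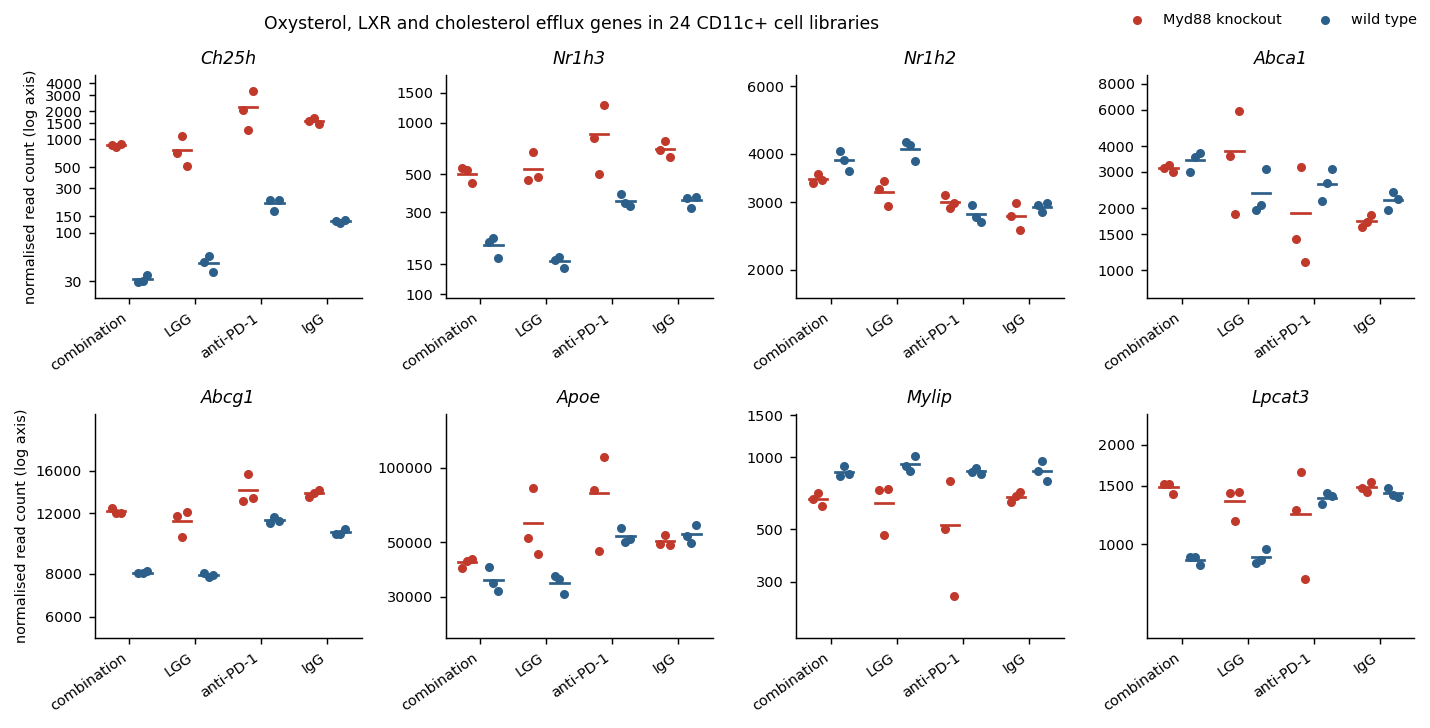
Normalised read count (log axis) of each gene in each library, by treatment, with Myd88 knockout to the left of wild type. Points are libraries and bars are means of 3. Every knockout library lies above every wild-type library for Ch25h and Nr1h3. For Mylip every knockout library lies below, by a narrow margin (highest knockout 790.6, lowest wild type 791.9). The IgG part for Ch25h is the difference that chose the genes. How many of all genes separate in this way was not counted.

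Ch25h was the most variable of the 8 genes. Its root mean square spread over the 24 libraries was 2.16 on the log2 scale, against 0.21 for Nr1h2, the least variable, and 0.83 for Nr1h3, the next most variable. All 12 knockout libraries (520.5 to 3323 normalised reads) lay above all 12 wild-type libraries (29.4 to 226). Ch25h had 1584, 1715.5 and 1454.5 normalised reads in knockout IgG libraries, against 134, 127 and 136 in wild-type IgG libraries. This is 11.9-fold, or 3.57 on the log2 scale, and is the difference that chose the genes, so it carries no test.

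The gap between genotypes was also present under the 3 treatments that the choice did not use. Under the combination, Ch25h had 879, 829 and 895 normalised reads in knockout libraries, against 29.4, 30.3 and 35.1 in wild-type libraries. With LGG alone the counts were 720.4, 1095 and 520.5 in knockout libraries, against 47.9, 55.5 and 37.6 in wild-type libraries. The groups did not overlap under either treatment. The log2 difference was 4.74 ± 0.26 under the combination (standard error, adjusted p = 6.88e-12), a 26.7-fold difference. It was 3.97 ± 0.26 under LGG (adjusted p = 1.19e-10). Under anti-PD-1, knockout libraries had 2097, 1278 and 3323 normalised reads, against 223, 169 and 226 in wild-type libraries, a log2 difference of 3.34 ± 0.26 (adjusted p = 9.56e-09). The knockout anti-PD-1 libraries spread over more than a 2-fold range, yet the lowest of them was still above every wild-type library.

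Within each genotype, Ch25h was lower with LGG than without it. The combination lowered Ch25h relative to anti-PD-1 by a log2 change of -2.66 ± 0.26 in wild-type cells (adjusted p = 4.01e-08). In knockout cells the same change was -1.26 ± 0.26 (adjusted p = 0.000925), and no library of either pair of groups overlapped. With the fit restricted to the libraries compared, the knockout change had an adjusted p of 0.0692. Leaving out the 3 libraries gave a knockout change of -1.27. The wild-type change was the larger: knockout minus wild type was 1.40 ± 0.37 (adjusted p = 0.00571), and 1.39 without the 3 libraries that stand apart. For LGG against IgG, which carries no test here, the log2 change was -1.09 in knockout cells and -1.49 in wild-type cells, and the groups did not overlap in either genotype. For anti-PD-1 against IgG it was 0.39 in knockout cells, where the groups overlap, and 0.62 in wild-type cells, where they do not. The combination did not differ from LGG alone beyond the spread in knockout (0.22 ± 0.26, adjusted p = 1.0) or wild-type cells (-0.54 ± 0.26, adjusted p = 0.783). Both of these passed when the 3 libraries were left out, at 0.50 ± 0.16 in knockout (adjusted p = 0.0439) and -0.54 ± 0.14 in wild-type cells (adjusted p = 0.0243). The wild-type groups hold none of the 3, so that change stayed the same and only its standard error fell.

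Ordered by mean, the 8 groups ran from knockout anti-PD-1 (2233 ± 1029 normalised reads, SD, n = 3) over knockout IgG (1584.5 ± 131), knockout combination (868 ± 34.5), knockout LGG (779 ± 292), wild-type anti-PD-1 (206 ± 32.4), wild-type IgG (132 ± 4.32) and wild-type LGG (47.0 ± 9.01) to wild-type combination (31.6 ± 3.05). Neighbours in this order overlapped between knockout anti-PD-1 and knockout IgG and between knockout combination and knockout LGG, and between no others. Per kilobase of exon, Ch25h was the third most abundant of the 8 genes in knockout IgG cells, at 1142 normalised reads, after Apoe (23596) and Abcg1 (1885). In wild-type IgG cells it was the least abundant, at 95.4, below Nr1h3 (140.0).

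Of the 8 genes, 4 were higher and 0 lower in knockout than in wild-type cells under the combination, where 58.1% of all 12749 genes tested passed an adjusted p of 0.05, 30.4% higher and 27.7% lower. Under LGG 5 were higher and 1 lower, against 55.2% of all genes, 28.2% higher and 27.0% lower. Under anti-PD-1 3 were higher and 1 lower, against 45.7% of all genes, 24.1% higher and 21.7% lower. The genes were chosen with results known, so these counts were not tested against those shares. Ch25h, Nr1h3 and Abcg1 were higher in knockout cells under each of the 3 treatments. The median log2 difference of the 8 genes was 0.42 under the combination, 0.555 under LGG and 0.20 under anti-PD-1, where the median of all genes was 0.02, 0.0 and 0.004.

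LGG against IgG called 2 genes higher and 1 lower of the 7 tested in knockout cells, where 32.2% of all genes passed, 18.1% higher and 14.2% lower. In wild-type cells it called 1 higher and 4 lower, where 55.5% passed, 27.4% higher and 28.2% lower. The knockout background became 61.4% when the 3 libraries were left out, 32.0% higher and 29.4% lower. The combination against anti-PD-1 called 2 higher and 4 lower of 8 in knockout cells, against 36.7% of all genes, 19.7% higher and 17.0% lower. In wild-type cells 1 was higher and 5 lower, against 56.8% of all genes, 27.7% higher and 29.1% lower. Anti-PD-1 against IgG called 0 of 7 in both genotypes by limma, edgeR and DESeq2. In knockout cells Apoe (0.56 ± 0.23, adjusted p = 0.246) and Mylip (-0.535 ± 0.25, adjusted p = 0.298) had an unadjusted p under 0.05, and in wild-type cells 0 of the 7 did. The background there was 1.8% of all genes in knockout cells (229 by limma, 192 by edgeR, 602 by DESeq2). In wild-type cells it was 0.0314% (4 by limma, 9 by edgeR, 207 by DESeq2). The combination against LGG called 0 of 8 in both genotypes by any of the 3 tools, and 0 of 8 had an unadjusted p under 0.05. The background was 0.275% of all genes in knockout cells (35 by limma, 55 by edgeR, 201 by DESeq2) and 0.0628% in wild-type cells (8 by limma, 11 by edgeR, 81 by DESeq2). The comparisons of LGG and of anti-PD-1 with IgG share their IgG libraries.

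**Figure D2:**
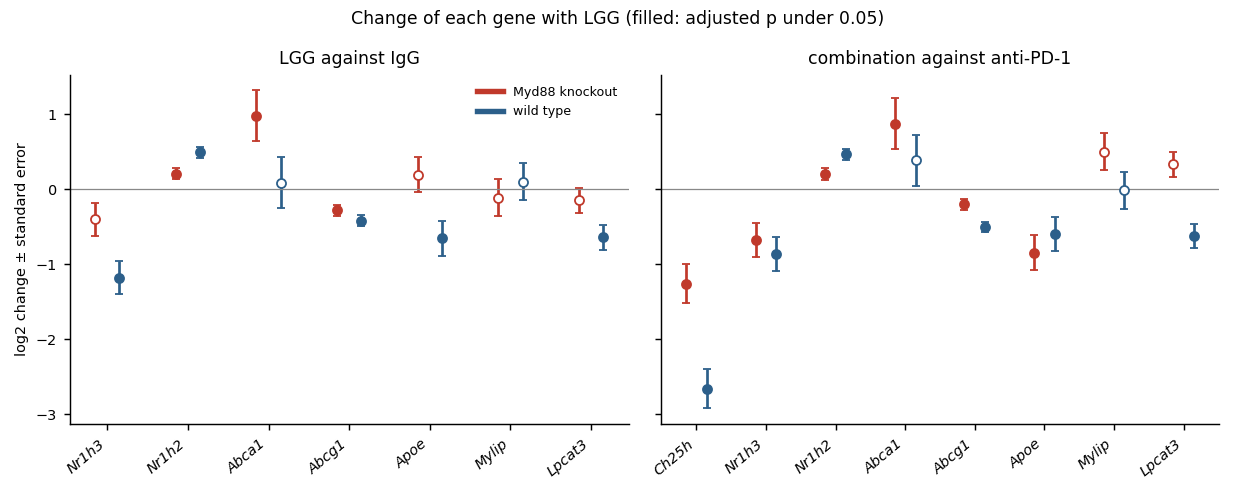
Log2 change of each gene with LGG, against IgG on the left and on top of anti-PD-1 on the right, with knockout (red) to the left of wild type (blue) and bars of 1 standard error. Filled points passed an adjusted p of 0.05; Ch25h carries no test against IgG and is left out there. Nr1h3 and Nr1h2 lie on opposite sides of 0 in every comparison drawn.

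The 2 LXR genes moved in opposite directions in wild-type cells given LGG. Nr1h3, encoding LXR-alpha, had 158, 165.5 and 142 normalised reads in wild-type LGG libraries, against 366, 320 and 370.5 in wild-type IgG libraries. The groups did not overlap, and the log2 change was -1.18 ± 0.22 (adjusted p = 0.000155). Nr1h2, encoding LXR-beta, had 4284, 4229 and 3835 normalised reads in wild-type LGG libraries, against 2946, 2833 and 2979 in wild-type IgG libraries. It rose by 0.49 ± 0.075 on the log2 scale (adjusted p = 1.16e-05), again with no overlap.

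In knockout cells both changes were smaller. Nr1h3 had 463, 481 and 676 normalised reads in knockout LGG libraries, with the highest in replicate 2, against 696, 785 and 635 in knockout IgG libraries. The groups overlap, and the log2 change was -0.40 ± 0.22 (adjusted p = 0.191). Without the 3 libraries, which leaves replicates 1 and 3 of knockout LGG, it was -0.57 ± 0.12 (adjusted p = 0.000457). Nr1h2 had 3239, 3399.9 and 2932 normalised reads in knockout LGG libraries, against 2764, 2983 and 2532 in knockout IgG libraries, which overlap. Its change of 0.21 ± 0.075 passed (adjusted p = 0.0372), and did not without the 3 libraries (0.16 ± 0.071, adjusted p = 0.0535). The call was also lost when replicate 1 or 3 of IgG or replicate 1 or 2 of LGG was left out (adjusted p of 0.081, 0.185, 0.105 and 0.12 in that order). The change of Nr1h2 with LGG was smaller in knockout than in wild-type cells, with a difference of -0.285 ± 0.105 (adjusted p = 0.0424). That call was lost when any 1 of 9 of the 12 libraries was left out, with adjusted p of 0.0561 to 0.124, and in the fit of the compared libraries alone (adjusted p = 0.0738). It was kept without the 3 libraries (adjusted p = 0.00483). For Nr1h3 the difference between genotypes was 0.78 ± 0.32 (adjusted p = 0.0645), and 0.60 ± 0.165 without the 3 libraries (adjusted p = 0.00341).

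On top of anti-PD-1, LGG gave the same pattern of directions. Nr1h3 had 541, 531 and 444 normalised reads in knockout combination libraries, against 811.5, 505 and 1273 in knockout anti-PD-1 libraries. These groups overlap through replicate 2 of anti-PD-1, and Nr1h3 fell by 0.68 ± 0.22 on the log2 scale (adjusted p = 0.0237). Wild-type libraries had 202, 212 and 163 normalised reads of Nr1h3 with the combination, against 385, 338 and 327 with anti-PD-1, a fall of -0.86 ± 0.22 (adjusted p = 0.00257) with no overlap. The knockout change was -0.35 without anti-PD-1 replicate 3 (adjusted p = 0.172). It lost its call without anti-PD-1 replicate 1 (adjusted p = 0.0557) or combination replicate 3 (adjusted p = 0.0893). Without the 3 libraries the change was -0.69. Nr1h2 had 3371, 3556 and 3414 normalised reads in knockout combination libraries, against 3125, 2889 and 2976 in knockout anti-PD-1 libraries. This was a rise of 0.20 ± 0.075 (adjusted p = 0.0403), or of 0.14 without the 3 libraries. Leaving out any 1 of 5 of these 6 libraries, all but anti-PD-1 replicate 1, lost that call (adjusted p of 0.0655 to 0.126). Wild-type libraries had 4081, 3857 and 3602 normalised reads of Nr1h2 with the combination, against 2940.2, 2749.7 and 2670.3 with anti-PD-1, a rise of 0.46 ± 0.075 (adjusted p = 2.29e-05). The groups overlap in neither genotype for Nr1h2.

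Nr1h3 was higher in knockout than in wild-type cells under every treatment, with no overlap in any. The log2 difference was 1.39 ± 0.22 under the combination (adjusted p = 2.27e-05), 1.77 ± 0.22 under LGG (adjusted p = 1.16e-06) and 1.20 ± 0.22 under anti-PD-1 (adjusted p = 0.000392). Under IgG it was 1.00 on the log2 scale, or 2.00-fold, with no test. Nr1h2 was lower in knockout cells under LGG (-0.37 ± 0.075, adjusted p = 0.0003) and did not pass in the limma fit under the combination (-0.16 ± 0.075, adjusted p = 0.0793) or anti-PD-1 (0.105 ± 0.075, adjusted p = 0.244). The combination difference passed with edgeR (adjusted p = 0.0332), DESeq2 (adjusted p = 0.0289), TMM scaling (adjusted p = 0.0344), array weights (adjusted p = 0.00734), the compared libraries alone (adjusted p = 0.00836) and when the 3 libraries were left out (adjusted p = 0.0312).

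Levels per kilobase of exon show how the balance of the receptors shifted, since they allow for gene length. The level of Nr1h3 over that of Nr1h2 was 0.196 ± 0.0206 in knockout combination, 0.225 ± 0.0376 in knockout LGG, 0.383 ± 0.172 in knockout anti-PD-1 and 0.341 ± 0.00916 in knockout IgG cells (SD, n = 3). In wild-type cells it was 0.0666 ± 0.0065 with the combination, 0.0503 ± 0.00167 with LGG, 0.167 ± 0.00637 with anti-PD-1 and 0.161 ± 0.00877 with IgG. By these counts Nr1h2 was thus the more abundant receptor in every group, and the ratio was higher in the knockout than in the wild-type group of each treatment. Within knockout anti-PD-1 the ratio was 0.346, 0.233 and 0.571 in replicates 1, 2 and 3. A lower Nr1h3 level in a bulk library can come from fewer cells that carry it or from less of it per cell, and these cannot be told apart, here or for the genes below.

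Abca1, which loads cholesterol onto lipid-poor apolipoproteins, was higher with LGG in knockout cells. It had 3579, 1880.4 and 5913 normalised reads in knockout LGG libraries, against 1619, 1724 and 1855.5 in knockout IgG libraries. All LGG libraries lay above all IgG libraries, though replicate 2 did so barely and the LGG group spanned more than a 3-fold range. The log2 change was 0.98 ± 0.34 (adjusted p = 0.0309). Leaving out knockout LGG replicate 3 gave 0.58 (adjusted p = 0.204), and the call was also lost without LGG replicate 1 (adjusted p = 0.0815) or any 1 IgG library (0.054 to 0.0873). Leaving out the 3 libraries gave 1.41 ± 0.196 (adjusted p = 7.95e-06). In wild-type cells Abca1 had 1963, 2073 and 3084.5 normalised reads with LGG, against 1957, 2409.5 and 2217.5 with IgG, which overlap (0.09 ± 0.34, adjusted p = 0.847). The genotypes' changes did not differ beyond the spread (0.89 ± 0.48, adjusted p = 0.16), and did without the 3 libraries (1.32 ± 0.26, adjusted p = 0.000294).

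On top of anti-PD-1, Abca1 had 3135, 3220.4 and 3002 normalised reads in knockout combination libraries, against 1417, 3164 and 1099.7 in knockout anti-PD-1 libraries. Replicate 2 of anti-PD-1 lies within the combination range, and the change of 0.87 ± 0.34 had an adjusted p of 0.0491. It was not called by edgeR (adjusted p = 0.0944) or DESeq2 (adjusted p = 0.0719), and it was 1.14 without the 3 libraries. It was 0.56 without anti-PD-1 replicate 3 (adjusted p = 0.245) and 1.32 without replicate 2 (adjusted p = 0.00104), and each other library of the 6 that was left out lost the call (adjusted p of 0.0888 to 0.151). In wild-type cells the counts were 3007, 3535 and 3691 with the combination, against 2157, 2639.6 and 3087 with anti-PD-1, which overlap (0.39 ± 0.34, adjusted p = 0.346). No difference between knockout and wild-type cells passed for Abca1 under the combination (-0.12 ± 0.34), LGG (0.555 ± 0.34) or anti-PD-1 (-0.61 ± 0.34), with adjusted p of 0.774, 0.175 and 0.136 in that order. Under IgG the untested log2 difference was -0.34. With the 3 libraries left out, the LGG difference was 0.985 ± 0.196 (adjusted p = 0.000216). The anti-PD-1 difference was then -0.88, with only replicate 1 of knockout anti-PD-1 left.

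Abcg1, the transporter that hands cholesterol to mature HDL particles, was lower with LGG in both genotypes, with small changes. Wild-type groups were tight, while knockout LGG and knockout anti-PD-1 libraries spread more widely (SD of 1018 and 1393, n = 3). It had 11796, 10207 and 12105 normalised reads in knockout LGG libraries, against 13427, 13791 and 14057 in knockout IgG libraries, a log2 change of -0.28 ± 0.071 (adjusted p = 0.00482). In the fit of the compared libraries alone this call was lost (adjusted p = 0.111). Without the 3 libraries the knockout change was -0.20 ± 0.042 (adjusted p = 0.000339). Wild-type libraries had 8017, 7812 and 7940.0 normalised reads with LGG, against 10472, 10469 and 10799 with IgG, a change of -0.42 ± 0.071 (adjusted p = 5.01e-05). Neither pair of groups overlaps. With the combination Abcg1 had 12407, 12023 and 12064 normalised reads in knockout libraries, against 13071, 15608 and 13344 with anti-PD-1. The change of -0.20 ± 0.071 passed (adjusted p = 0.0356), and did not with edgeR (adjusted p = 0.0531) or with TMM scaling (adjusted p = 0.0601). Without the 3 libraries it was -0.10. It was -0.12 without anti-PD-1 replicate 2 (adjusted p = 0.127) and missed the threshold without any 1 combination library (adjusted p of 0.0608 to 0.0946). In wild-type cells the counts were 8041, 8015 and 8139 with the combination, against 11228, 11705 and 11398 with anti-PD-1 (-0.505 ± 0.071, adjusted p = 4.88e-06). This fall was the larger one, with a knockout minus wild-type difference of 0.31 ± 0.10 (adjusted p = 0.0224), or 0.40 without the 3 libraries. Its adjusted p was 0.0509 to 0.0557 without knockout combination replicate 1, knockout anti-PD-1 replicate 1 or wild-type anti-PD-1 replicate 2, and 0.0825 in the fit of the compared libraries alone.

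Knockout cells had more Abcg1 than wild-type cells under the combination (0.59 ± 0.071, adjusted p = 5.83e-07), LGG (0.52 ± 0.071, adjusted p = 3.73e-06) and anti-PD-1 (0.29 ± 0.071, adjusted p = 0.0044). The groups overlap under none of the 3, and under IgG the untested log2 difference was 0.38. Per kilobase of exon, Abca1 was the scarcer transporter everywhere. Its level over that of Abcg1 was 0.181 ± 0.0071 in knockout combination, 0.229 ± 0.108 in knockout LGG, 0.0924 ± 0.0446 in knockout anti-PD-1 and 0.0886 ± 0.00406 in knockout IgG cells. In wild-type cells it was 0.298 ± 0.0301 with the combination, 0.211 ± 0.0547 with LGG, 0.162 ± 0.0278 with anti-PD-1 and 0.146 ± 0.0153 with IgG (SD, n = 3).

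Apoe, a secreted apolipoprotein that carries exported lipid, was the most abundant of the 8 genes and ranked at percentile 99.7 of all listed genes by mean count. In knockout LGG libraries it had 51698, 83007 and 44673 normalised reads, against 49169.5, 53588 and 48584 in knockout IgG libraries. The groups overlap, replicate 2 stands high, and the log2 change was 0.19 ± 0.23 (adjusted p = 0.584), or -0.07 ± 0.096 without the 3 libraries (adjusted p = 0.548). Wild-type libraries had 36488, 35467 and 30672 normalised reads with LGG, against 52942, 49559.6 and 58687 with IgG. Apoe fell there by 0.65 ± 0.23 on the log2 scale, with no overlap (adjusted p = 0.0223), and the call was lost without wild-type LGG replicate 3 (adjusted p = 0.0774) or wild-type IgG replicate 3 (adjusted p = 0.0742).

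With the combination, Apoe had 39307, 42017 and 42860.0 normalised reads in knockout libraries, against 81287, 45864.5 and 110578 with anti-PD-1. It fell by 0.85 ± 0.23 on the log2 scale (adjusted p = 0.00773). The change was -0.56 when anti-PD-1 replicate 3 was left out (adjusted p = 0.0533), and -0.975 without the 3 libraries. Wild-type libraries had 39494, 33966 and 31696 normalised reads with the combination, against 56868, 50119.8 and 51390.5 with anti-PD-1, a log2 change of -0.595 ± 0.23 (adjusted p = 0.035). That call was lost without any 1 of 5 of the 6 libraries, all but combination replicate 1, with adjusted p of 0.0556 to 0.107. The change of Apoe with LGG against IgG was more positive in knockout than in wild-type cells by 0.85 ± 0.33 (adjusted p = 0.052), and passed without the 3 libraries (0.58 ± 0.13, adjusted p = 0.000537). Knockout cells had more Apoe than wild-type cells under LGG (0.76 ± 0.23, adjusted p = 0.00913), and 0.49 ± 0.096 more without the 3 libraries (adjusted p = 0.000105); without knockout LGG replicate 2 alone it was 0.49 as well (adjusted p = 0.0704). Under the combination (0.245 ± 0.23, adjusted p = 0.385) and anti-PD-1 (0.50 ± 0.23, adjusted p = 0.0825) the difference did not pass. Without the 3 libraries it passed under the combination (adjusted p = 0.0139), and under anti-PD-1 it was 0.625.

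Mylip, also called IDOL, showed no change with LGG in either genotype that passed with all libraries in the limma fit. It had 726, 471 and 738.5 normalised reads in knockout LGG libraries, against 647, 687 and 714 in knockout IgG libraries (-0.11 ± 0.25, adjusted p = 0.786). It had 922, 874 and 1012 normalised reads in wild-type LGG libraries, against 873, 961 and 792 in wild-type IgG libraries (0.10 ± 0.25, adjusted p = 0.76). Both pairs of groups overlap. On top of anti-PD-1 the knockout change was 0.50 ± 0.25 (adjusted p = 0.115), with replicate 2 of anti-PD-1 above all combination libraries and the other anti-PD-1 libraries below them. That change passed with array weights (0.43, adjusted p = 0.000248) and without anti-PD-1 replicate 2 alone (0.875, adjusted p = 0.000992), and was 0.41 without the 3 libraries. Wild-type cells had a change of -0.01 ± 0.25 (adjusted p = 0.974). Under the combination Mylip had 669, 707 and 627 normalised reads in knockout libraries, against 829.7, 917 and 848 in wild-type libraries, which do not overlap and did not pass (-0.37 ± 0.25, adjusted p = 0.205). Under anti-PD-1 it had 501, 791 and 263 normalised reads in knockout libraries, against 865, 902 and 846 in wild-type libraries. That difference, -0.89 ± 0.25, was the only call limma made for Mylip with all libraries in the 13 tested comparisons (adjusted p = 0.00923). DESeq2 also called the difference under LGG (-0.55, adjusted p = 0.0425; limma -0.56 ± 0.25, adjusted p = 0.0597). The anti-PD-1 difference missed the threshold in the fit of the compared libraries alone (adjusted p = 0.212), and without knockout anti-PD-1 replicate 3 it was -0.47 (adjusted p = 0.0526). Over all treatments the 12 knockout libraries (263 to 791) lay below the 12 wild-type libraries (792 to 1012). With the 3 libraries left out, the difference passed under the combination (adjusted p = 0.000123) and LGG (adjusted p = 0.000787), and was -0.80 under anti-PD-1.

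Lpcat3 was lower in wild-type cells given LGG, and its changes with LGG in knockout cells did not pass with all libraries in the limma fit. In knockout cells it had 1432, 1178 and 1435 normalised reads with LGG, against 1484, 1442 and 1538 with IgG, which do not overlap but did not pass (-0.15 ± 0.16, adjusted p = 0.546). In wild-type cells the counts were 879.5, 896.5 and 967 with LGG, against 1481.5, 1404 and 1392 with IgG, a fall of 0.64 ± 0.16 (adjusted p = 0.00227). The difference between these changes did not pass (0.49 ± 0.23, adjusted p = 0.106), and did without the 3 libraries (0.59 ± 0.081, adjusted p = 2.58e-06). With the combination, Lpcat3 had 1522, 1522 and 1414 normalised reads in knockout libraries, against 1269, 1651 and 784 with anti-PD-1, which overlap (0.33 ± 0.16, adjusted p = 0.115). This change passed with array weights (0.24, adjusted p = 0.00165) and without anti-PD-1 replicate 2 alone (0.57, adjusted p = 0.00116), and was 0.23 without the 3 libraries. In wild-type libraries it had 914, 918 and 863 with the combination, against 1326, 1429 and 1394 with anti-PD-1 (-0.62 ± 0.16, adjusted p = 0.00279). Here the genotypes differed by 0.95 ± 0.23 (adjusted p = 0.00271), or by 0.85 without the 3 libraries.

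Lpcat3 was accordingly higher in knockout than in wild-type cells under the combination (0.73 ± 0.16, adjusted p = 0.000747) and LGG (0.555 ± 0.16, adjusted p = 0.0067), where no libraries overlap. Under anti-PD-1 it was not (-0.23 ± 0.16, adjusted p = 0.244), and under IgG the untested log2 difference was 0.06. Without the 3 libraries the Lpcat3 difference was 0.65 under LGG and -0.12 under anti-PD-1. Of the 8 genes, 3 had a change with the combination over anti-PD-1 that differed between genotypes (Ch25h, Abcg1 and Lpcat3, all with the more negative change in wild type), where 37.7% of all genes did. For LGG against IgG, limma with all libraries called 1 of 7, Nr1h2, against 34.9% of all genes. Other tools called more: Apoe passed with edgeR (adjusted p = 0.0354), DESeq2 (adjusted p = 0.0223) and TMM scaling (adjusted p = 0.0494), and Nr1h3 with DESeq2 (adjusted p = 0.0491).

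The libraries that stand apart did so in opposite senses for different genes. In knockout LGG replicate 2, Ch25h lay 0.56, Apoe 0.53 and Nr1h3 0.345 above the group mean on the log2 scale, while the deviation was -0.86 for Abca1, -0.42 for Mylip and -0.19 for Lpcat3. Knockout anti-PD-1 replicate 3 was alike, with deviations of 0.68 for Ch25h, 0.57 for Apoe, 0.66 for Nr1h3, -0.63 for Abca1, -0.84 for Mylip and -0.59 for Lpcat3. Knockout anti-PD-1 replicate 2 deviated the other way for all 6 genes, by -0.70 for Ch25h, -0.70 for Apoe and -0.67 for Nr1h3, and by 0.89 for Abca1, 0.75 for Mylip and 0.485 for Lpcat3. Nr1h2 deviated by -0.12 to 0.095 in the 6 libraries of these groups.

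Gene length moved with these deviations. In knockout LGG replicate 2 genes with 6779 or more exon bases, the upper quartile, had a median deviation of -0.30, and genes with 2771 or fewer, the lower quartile, one of 0.32. In knockout anti-PD-1 replicate 3 these medians were -0.20 and 0.36, and in replicate 2 they were 0.33 and -0.42. The other 21 libraries lay between -0.12 and 0.235 for the longest and between -0.235 and 0.10 for the shortest genes. Knockout LGG replicate 3, which was kept and had the highest Abca1 count (5913), holds both 0.235 and -0.235. Between knockout and wild type, the medians of the longest and shortest genes were -0.282 and 0.349 under anti-PD-1 and -0.176 and 0.198 under IgG. They were -0.161 and 0.113 under the combination and -0.022 and -0.023 under LGG. Summed dendritic cell markers were 409072 normalised reads in knockout LGG replicate 2, against 260146 to 283788 in the other LGG libraries of that genotype. They were 206312 in knockout anti-PD-1 replicate 2, 450115 in replicate 3 and 317605 in replicate 1. Ch25h, Apoe and Nr1h3 are the 3 shortest of the 8 genes and Abca1 is the longest, and the part of length, RNA quality or cell content in their deviations was not tested.

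**Figure D3:**
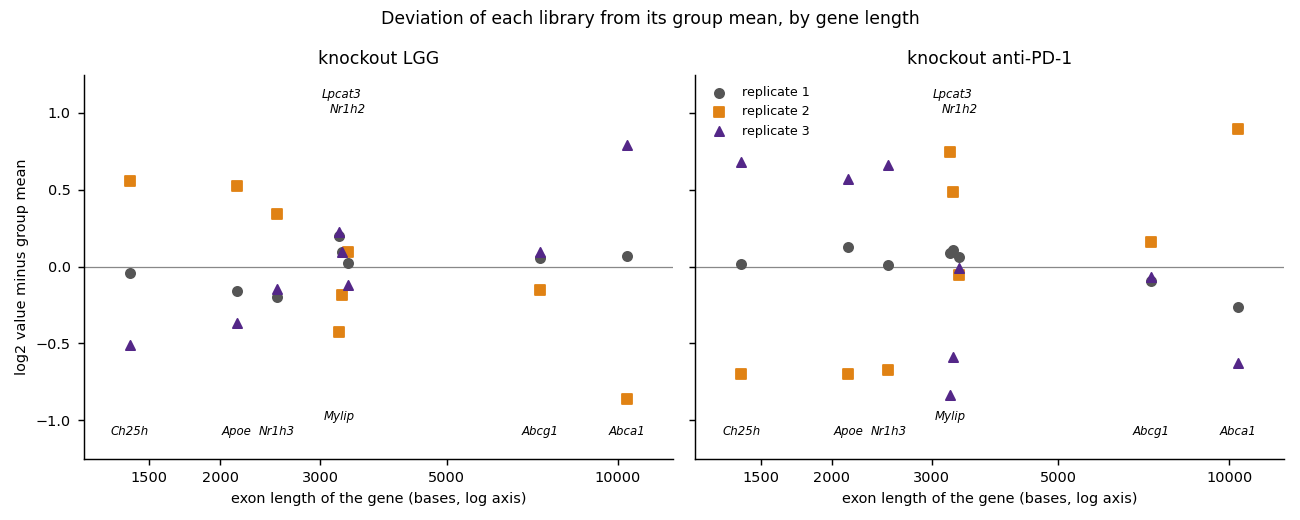
Deviation of each library's log2 value from its group mean (vertical axis) against the exon length of the gene in bases (log axis), for the knockout LGG and knockout anti-PD-1 groups, with 1 symbol per replicate. The shortest genes lie high and Abca1 low in LGG replicate 2 and anti-PD-1 replicate 3, and the reverse holds in anti-PD-1 replicate 2.

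Markers of dendritic cells, macrophages and T cells were called in the LGG comparisons, and within some lists they went both ways. Beside the counts of markers below, LGG against IgG called 18.1% of all genes higher and 14.2% lower in knockout cells. In wild-type cells it called 27.4% higher and 28.2% lower. Summed dendritic cell markers were 260146 to 409072 in knockout LGG libraries, against 238005 to 250745 in knockout IgG libraries, with 7 higher and 0 lower of 14. They were 400538 to 460495 in wild-type LGG libraries, against 239303 to 266024.5 in wild-type IgG libraries, with 7 higher and 4 lower. Ccr7, the receptor of migratory dendritic cells, averaged 76466 normalised reads in wild-type LGG and 6153 in wild-type IgG cells, while Itgax averaged 9827.5 and 23090.5 in the same groups. The marker Fscn1 averaged 81835 and 4321 there, and the sums weigh such abundant markers most. The summed level of 14 listed macrophage markers was 276869 to 379775 in knockout LGG libraries, against 388845 to 432876 in knockout IgG libraries, with 3 higher and 4 lower by the test. It was 81057 to 89699 in wild-type LGG libraries, against 275522 to 297357 in wild-type IgG libraries, with 3 higher and 9 lower. In knockout cells Lyz2, the most abundant of these markers, averaged 235986 with LGG and 317607 with IgG, while Csf1r averaged 20200 and 15942. The marker Mrc1 had 34.96 to 48.9 normalised reads in wild-type LGG libraries, against 8297 to 8840.1 in wild-type IgG libraries. Csf1r had 3590.3 to 3667, against 18082 to 19582, in the same groups. Adgre1, by contrast, had 4220.1 to 4603, against 4178 to 4284, so these ranges overlap. Cd14 (28414 with LGG, 2719 with IgG), Vcam1 (608 with LGG, 38.1 with IgG) and Marco (283 with LGG, 46.3 with IgG) had higher means in wild-type LGG than in wild-type IgG cells. Summed T cell markers were 4644 to 5699 in knockout LGG libraries, against 1504 to 1583 in knockout IgG libraries, with 10 higher and 0 lower of 10. They were 14029 to 15246 in wild-type LGG libraries, against 13032 to 13878 in wild-type IgG libraries, with 3 higher and 3 lower of 10. In the combination against anti-PD-1, summed macrophage markers were 309694.5 to 321210.2 against 309902 to 473879 in knockout libraries, and 85497 to 92968 against 277285 to 290154 in wild-type libraries. Of 10 T cell markers, 10 were lower in knockout than in wild-type cells under anti-PD-1, where 21.7% of all genes were. Under LGG 9 were lower and 1 higher, where 27.0% of all genes were lower and 28.2% higher. Under the combination 9 were lower and 1 higher, where 27.7% of all genes were lower and 30.4% higher. Cd28 had the higher mean in knockout cells under both, at 776 against 285 with LGG and 758 against 434 with the combination. The part of cell content in the results for the 8 genes was not tested.

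Patterns were compared by the root mean square difference of log2 values over the 24 libraries, after each gene's own mean was taken off, which is a description with no test. The 3 genes most like Ch25h were Sh2d6 (0.63), Rbp4 (0.69), a retinol carrier, and Chil4 (0.74), a chitinase-like protein, while the median over all genes was 2.17. Rbp4 averaged 29671 normalised reads in knockout combination and 19569.6 in knockout IgG cells, against 617.5 in wild-type combination and 2641 in wild-type IgG cells. Chil4 averaged 994 in knockout combination and 1104 in knockout IgG cells, against 38.5 and 378 in the wild-type groups of the same treatments. Most like Nr1h3 were Eif2b3 (0.16), Lgals3 (0.18), encoding galectin-3, and Adam15 (0.20), with a median over all genes of 0.89. Lgals3 averaged 236649 normalised reads in knockout LGG and 248394 in knockout IgG cells, against 68863 in wild-type LGG and 136564 in wild-type IgG cells. Most like Abca1 were Ago2 (0.16), Zfp516 (0.16) and Itprid2 (0.18), with a median over all genes of 0.71.

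The wider pathway was described with 5 lists of other genes. Of 15 further LXR targets, 10 were tested. With LGG in knockout cells 2 rose and 3 fell (median log2 change -0.29), and in wild-type cells 1 rose and 8 fell (median -1.95), where all genes had medians of 0.0 and -0.003. Of all genes, 18.1% rose and 14.2% fell in knockout, and 27.4% rose and 28.2% fell in wild type. Leaving out the 3 libraries gave knockout counts of 2 and 5, against 32.0% and 29.4% of all genes. Lpl, lipoprotein lipase, averaged 120352 normalised reads in knockout LGG and 149091 in knockout IgG cells (-0.32 ± 0.13, adjusted p = 0.0676). In wild-type cells it averaged 15749.7 with LGG and 80843 with IgG, a fall of 2.36 ± 0.13 on the log2 scale (adjusted p = 5.84e-12). Pltp, a phospholipid transfer protein, averaged 6577 and 7915.5 in knockout LGG and IgG cells (-0.27 ± 0.225), against 1074 and 5638 in wild-type LGG and IgG cells (-2.39 ± 0.225).

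Mertk, a receptor for apoptotic cells, fell by 2.31 ± 0.26 in wild-type cells and had a change of -0.45 ± 0.26 in knockout cells (adjusted p = 0.215). Smpdl3a, a phosphodiesterase, fell in both, by 1.03 ± 0.084 in knockout and by 2.01 ± 0.084 in wild-type cells. Cd5l, a macrophage survival protein, fell in both as well, with log2 changes of -1.47 ± 0.35 in knockout and -2.67 ± 0.35 in wild-type cells, and averaged 40.5 normalised reads in knockout LGG cells, against 114.0 in knockout IgG cells. Scd1, stearoyl-CoA desaturase, fell by 0.40 ± 0.13 in knockout and by 1.36 ± 0.13 in wild-type cells. Arl4c, a small GTPase, was the 1 target that rose in wild-type cells (1.445 ± 0.081) and rose in knockout cells too (0.46 ± 0.081). For 8 of the 10 targets the knockout change was the more positive by the test of the difference, and for 1 the more negative. Of all genes, 34.9% passed that test in either direction.

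Among 8 tested LXR partners and co-regulators, 0 rose and 1 fell in knockout cells with LGG, and 0 rose and 3 fell in wild-type cells. Of all genes, 18.1% rose and 14.2% fell in knockout and 27.4% rose and 28.2% fell in wild-type cells. Leaving out the 3 libraries gave knockout counts of 3 and 2, where 32.0% of all genes rose and 29.4% fell. Rxra, the retinoid X receptor that pairs with LXR, averaged 1935 normalised reads in knockout LGG and 2397 in knockout IgG cells (-0.31 ± 0.087, adjusted p = 0.00963). Its wild-type mean was 681 with LGG and 2217.5 with IgG (-1.70 ± 0.087, adjusted p = 2.17e-12), and the genotypes' changes differed by 1.39 ± 0.12 (adjusted p = 3.38e-08). The coactivator Ncoa1 fell by 0.79 ± 0.24 in wild-type cells (-0.19 ± 0.24 in knockout, adjusted p = 0.615).

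Of 12 tested genes of oxysterol synthesis, breakdown and sensing, 2 rose and 2 fell with LGG in knockout cells, and 4 rose and 5 fell in wild-type cells. The shares of all genes were 18.1% and 14.2% in knockout, and 27.4% and 28.2% in wild-type cells. Without the 3 libraries the knockout counts were 4 and 2, against 32.0% and 29.4% of all genes. Gpr183, the receptor for 7-alpha,25-dihydroxycholesterol that positions dendritic cells, went opposite ways. It averaged 222 normalised reads in knockout LGG and 311 in knockout IgG cells (-0.48 ± 0.105, adjusted p = 0.00134), against 1645 in wild-type LGG and 401 in wild-type IgG cells (2.04 ± 0.105, adjusted p = 2.2e-12). The 2 changes differed by -2.515 ± 0.15 (adjusted p = 8.98e-11). Hsd11b1, a steroid dehydrogenase that also acts on 7-oxygenated sterols, rose in knockout cells (0.95 ± 0.32, adjusted p = 0.026) and fell in wild-type cells (-2.06 ± 0.32, adjusted p = 1.43e-05), at means of 16.8 to 65.0 normalised reads.

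Cyp27a1, which makes 27-hydroxycholesterol, fell in both genotypes, by 0.45 ± 0.11 in knockout and by 1.19 ± 0.11 in wild-type cells. Cyp11a1, the side-chain cleavage enzyme, rose in both, by 1.63 ± 0.13 in knockout and 0.56 ± 0.13 in wild-type cells. Sult2b1, a sterol sulphotransferase, rose in wild-type cells alone by the test (2.01 ± 0.27, and 0.07 ± 0.27 in knockout), and the changes differed by -1.94 ± 0.38 (adjusted p = 0.000445). Cyp39a1, an oxysterol 7-alpha-hydroxylase, fell in wild-type cells (-2.85 ± 0.52), at a mean of 2.77 normalised reads with LGG and 24.3 with IgG.

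Of 23 tested genes of SREBP2 and cholesterol synthesis, 2 rose and 6 fell with LGG in knockout cells (median -0.17), and 1 rose and 14 fell in wild-type cells (median -0.44). All genes rose and fell at 18.1% and 14.2% in knockout, and at 27.4% and 28.2% in wild-type cells. Without the 3 libraries the knockout counts were 5 and 10, against 32.0% and 29.4% of all genes. Dhcr7, which makes cholesterol from 7-dehydrocholesterol, averaged 906 normalised reads in knockout LGG and 1350.2 in knockout IgG cells (-0.575 ± 0.106). It averaged 198 in wild-type LGG and 1409 in wild-type IgG cells (-2.84 ± 0.106). Sc5d fell by 0.58 ± 0.11 in knockout and by 1.08 ± 0.11 in wild-type cells, and Nsdhl and Hmgcs1 also fell in both. Pmvk, a kinase of the mevalonate steps, rose in wild-type cells (1.43 ± 0.27), with a change of -0.175 ± 0.27 in knockout cells.

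Of 14 genes of cholesterol uptake, storage and lysosomal export, 4 rose and 2 fell with LGG in knockout cells (median 0.14), and 4 rose and 9 fell in wild-type cells (median -1.12). Set beside them, 18.1% of all genes rose and 14.2% fell in knockout cells, and 27.4% rose and 28.2% fell in wild-type cells. Without the 3 libraries the knockout counts were 7 and 2, against 32.0% and 29.4% of all genes. Lipa, lysosomal acid lipase, averaged 22670.2 normalised reads in knockout LGG and 22487 in knockout IgG cells (0.008 ± 0.091, adjusted p = 0.962). Its wild-type mean was 1904 with LGG and 13166 with IgG (-2.79 ± 0.091, adjusted p = 2.32e-15). Nceh1, a cholesterol ester hydrolase, fell by 0.52 ± 0.088 in knockout and by 2.77 ± 0.088 in wild-type cells, and Scarb1, the HDL receptor SR-B1, by 0.465 ± 0.083 and 2.51 ± 0.083 in the same order. The lipoprotein receptors Lrp8 and Olr1 rose in both genotypes, Lrp8 by 1.81 ± 0.205 in knockout and 2.59 ± 0.205 in wild-type cells, and Olr1 by 1.79 ± 0.11 and 1.94 ± 0.11.

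**Figure D4:**
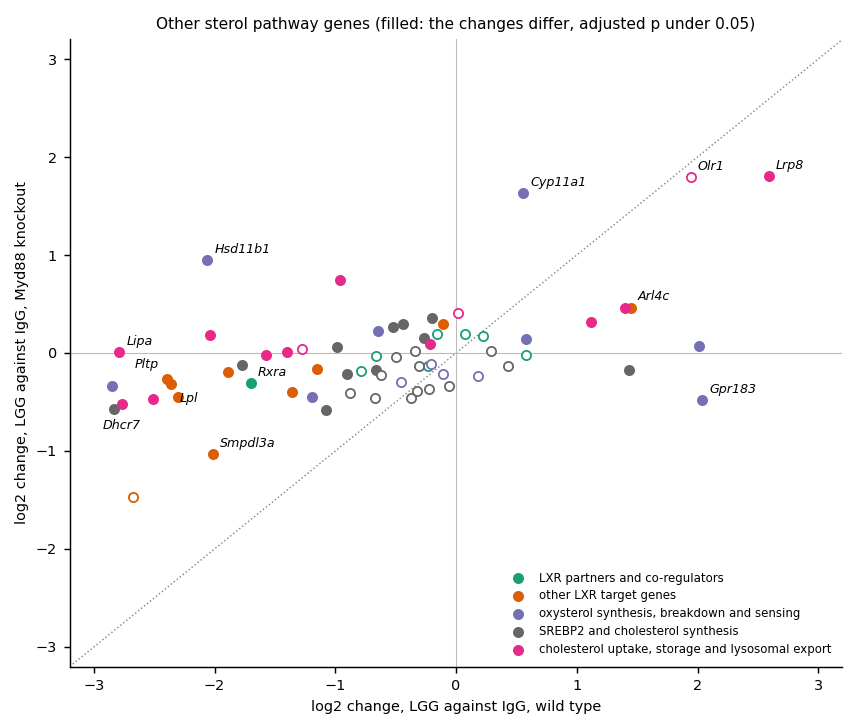
Log2 change with LGG against IgG in knockout (vertical axis) and wild-type cells (horizontal axis) for the tested genes of the 5 lists, with the dotted line marking equal change. Filled points differ between genotypes at an adjusted p under 0.05. Lipa lies far to the left at a knockout change near 0, and Gpr183 lies to the right and below 0.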

How the data were processed

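The authors deposited 1 table of normalised read counts per gene, a signal that is each gene's reads divided by a size factor of its library. Per the submitters' processing notes, the tools were STAR 2.4.0, HTSeq 0.6.1 and DESeq2, on build mm10. In every library 100.0% of the deposited values were whole multiples of the value of 1 read within a tolerance of 0.001, which gave back whole reads for the count tests.

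From the deposited values, log2(value + 1) was fitted with limma 3.58.1 (R 4.3.3, robust and trended moderation), with 1 mean per group over the 24 libraries. The fit held 12749 genes with a mean of at least 10, and two-sided p-values were adjusted over all of them by Benjamini-Hochberg with a threshold of 0.05. A change on this scale understates that of low genes. Alternatives were a pseudocount of 8, no filter, TMM scaling, array weights, a fit of the compared libraries alone, the replicate number as a block, count tests of the whole reads with DESeq2 1.42.0 and edgeR 4.0.16, each library left out in turn, and the 3 libraries that stand apart left out together. The fit was tested on simulated data.

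The 8 genes and the lists were chosen with earlier results of these data known. By rule, up to 4 called genes of each list with the largest LGG change in each genotype, at a mean of at least 20, were named, except some that are not reported here, as were the 3 genes most alike in pattern to Ch25h, Nr1h3 and Abca1. Gene positions came from the annotation and promoters from RefSeq.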

Additional observations from a re-analysis of the deposited data

Results flagged for a closer look

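In 4 results the response of a gene differed between knockout and wild-type cells by a test of the difference itself, with the knockout change minus the wild-type change given on the log2 scale. For the combination against anti-PD-1, these were Ch25h at 1.40 (adjusted p = 0.00571), Lpcat3 at 0.95 (adjusted p = 0.00271) and Abcg1 at 0.31 (adjusted p = 0.0224). For LGG against IgG, the result was Nr1h2 at -0.285 (adjusted p = 0.0424). The Nr1h2 and Abcg1 results missed the threshold in the fit of the compared libraries alone (adjusted p = 0.0738 and 0.0825), and Nr1h2 also missed it when any 1 of 9 of the 12 libraries was left out. Of all genes, 37.7% and 34.9% passed these tests.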

How the results depend on the processing

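Over the tested comparisons of the 8 genes, 1575 values under alternatives were compared with the values reported. Of these, 1359 kept their direction and side of the threshold, 70 lost a call, 93 gained one and 53 changed sign, and no call changed sign in the settings run. The pseudocount of 8 and the absence of a filter kept all 99 values each. The cause of the changes below was not tested. Depth limits the lowest values most, which are those of Ch25h in wild-type combination libraries (29.4 to 35.1 normalised reads).

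Array weights gave 9068 called genes for LGG against IgG in knockout, 3056 and 3053 for anti-PD-1 against IgG in wild type and knockout, 8535 for the combination against anti-PD-1 in knockout, 4680 and 3656 for the combination against LGG in wild type and knockout, 9328 for knockout against wild type under anti-PD-1, and 8949 and 8614 for the differences between genotypes of the LGG and combination changes. They gave 10138 called genes for knockout against wild type under the combination, and all such counts are of 12749 tested. Ch25h carries no test in comparisons that use IgG, so 7 genes were counted there and 8 elsewhere. Array weights called 1 and 4 of 7 for anti-PD-1 against IgG, and 4 and 2 of 8 for the combination against LGG. They called 8 and 7 of 8 for knockout against wild type under anti-PD-1 and the combination. For the genotype differences they called 6 of 7 with LGG and 7 of 8 with the combination. Leaving out the 3 libraries keeps only replicate 1 of knockout anti-PD-1. The counts without them for anti-PD-1 against IgG in knockout and for the combination genotype difference therefore rest on that library. Such counts borrow their spread from other groups, so no result is drawn from them. Without the 3 libraries the called genes were 7830 for LGG against IgG in knockout, 1079 and 1140 for anti-PD-1 against IgG, 1095 and 1437 for the combination against LGG, and 8010 and 7239 for the genotype differences. The members called were then 2 for anti-PD-1 against IgG in knockout, 1 and 1 for the combination against LGG, 7 for knockout against wild type under the combination, and 6 and 7 for the genotype differences.

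Fitting the compared libraries alone gave 2677 called genes and 0 members for LGG against IgG in knockout. It gave 1760 and 0 genes for anti-PD-1 against IgG, and 145 and 0 genes for the combination against LGG. The combination against anti-PD-1 in knockout had 1245 genes and 0 members. Knockout against wild type under anti-PD-1 had 796 genes and 1 member (Ch25h, while Nr1h3, Abcg1 and Mylip lost their calls). Under the combination that contrast had 9906 genes and 7 of 8 members. The LGG genotype difference had 4876 genes and 3 of 7 members (Nr1h3, Apoe and Lpcat3, not Nr1h2). For anti-PD-1 against IgG in wild type the pseudocount of 8 gave 7 genes, edgeR 9, DESeq2 207 and the replicate block 0, and DESeq2 gave 602 in knockout. For the combination against LGG, wild-type counts were 16 with TMM, 81 with DESeq2 and 5 with the replicate block, and knockout counts were 55 with edgeR and 201 with DESeq2. The LGG genotype difference called 2 of 7 members with TMM, 2 with edgeR and 3 with DESeq2, beside 4459, 4519 and 4877 of all genes.

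Leaving out 1 library at a time gave 0 to 3 and 74 to 4581 called genes for anti-PD-1 against IgG in wild type and knockout, with 0 to 4 members in knockout. It gave 3352 to 4772 genes and 1 to 2 members for LGG against IgG in knockout. The combination against anti-PD-1 in knockout had 3589 to 7544 genes and 2 to 6 members. The combination against LGG had 0 to 7 and 11 to 47 genes in wild type and knockout. For knockout against wild type under anti-PD-1, leaving out 1 library gave 3307 to 8689 genes and 3 to 7 members. The genotype differences had 3974 to 5242 genes and 0 to 2 members with LGG, and 4219 to 7264 genes and 2 to 6 members with the combination.

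The values that changed sign had not passed the threshold as reported. Array weights gave -0.009 for Abca1 (LGG against IgG, wild type), 0.12 for Mylip (LGG against IgG, knockout), 0.008 for Mylip and -0.05 for Abcg1 (anti-PD-1 against IgG, wild type and knockout), -0.052 for Apoe and 0.001 for Lpcat3 (combination against LGG, wild type), 0.127 for Nr1h3 and -0.108 for Mylip (combination against LGG, knockout) and 0.068 for Mylip (LGG genotype difference). Without the 3 libraries these were 0.101 for Mylip and -0.069 for Apoe (LGG against IgG, knockout), -0.074 for Abcg1 (anti-PD-1 against IgG, knockout), 0.092 for Nr1h3 and -0.135 for Mylip (combination against LGG, knockout) and 0.003 for Mylip (LGG genotype difference). Abca1 in anti-PD-1 against IgG in knockout was 0.116 with edgeR and 0.131 with DESeq2, and Mylip in the combination against anti-PD-1 in wild type was 0.011 with TMM, 0.012 with edgeR and 0.013 with DESeq2.

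Single libraries left out gave these ranges where the sign changed. In LGG against IgG they were -0.116 to 0.209 for Abca1 in wild type, and -0.222 to 0.101 for Mylip and -0.069 to 0.378 for Apoe in knockout. In anti-PD-1 against IgG they were -0.079 to 0.039 for Nr1h3, -0.074 to 0.066 for Mylip and -0.081 to 0.041 for Apoe in wild type, and -0.134 to 0.532 for Nr1h3, -0.471 to 0.291 for Abca1 and -0.059 to 0.069 for Abcg1 in knockout. In the combination against anti-PD-1 the range was -0.053 to 0.019 for Mylip in wild type. In the combination against LGG they were -0.056 to 0.103 for Apoe and -0.052 to 0.016 for Lpcat3 in wild type, and -0.034 to 0.501 for Ch25h, -0.18 to 0.092 for Nr1h3, -0.561 to 0.265 for Abca1 and -0.135 to 0.189 for Mylip in knockout. Lpcat3 ran over -0.471 to 0.066 in knockout against wild type under anti-PD-1, Mylip over -0.32 to 0.003 in the LGG genotype difference, and Nr1h3 over -0.148 to 0.517 and Apoe over -0.602 to 0.033 in that of the combination.

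Replicate numbers did not pair the samples: deviations of same-numbered libraries had a median correlation of 0.023 (-0.832 to 0.56, 22 of 84 pairs over 0.1) and those of other pairs one of -0.014. With the replicate block 97 of 99 values kept their side of the threshold, Abca1 in the combination against anti-PD-1 in knockout missed it (0.87, adjusted p = 0.0572), and the combination genotype difference of Nr1h2 passed it (-0.26, adjusted p = 0.0385).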
